A study of Mus musculus with 8 samples.

Results

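The cytosolic ribosomal protein genes encode the protein part of the ribosome that translates cellular mRNAs. They were taken here as the protein-coding genes whose symbols are Rpl or Rps followed by a number, with Rplp0, Rplp1, Rplp2 and Rpsa added, and with the Rps6k kinases, the binding protein Rps19bp1 and symbols holding -ps left out. The rule gave 88 of the 21887 genes with a protein product on the autosomes and sex chromosomes. Of these, 43 encode proteins of the large (60S) subunit, 31 encode proteins of the small (40S) subunit, 3 encode the acidic stalk of the large subunit and 11 are paralogs or retroposed copies. One of the 11, Rps23rg1, is a retroposed gene that meets the rule by its symbol only.

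These genes are transcribed strongly in nearly every cell, from promoters that often hold ETS and YY1 sites. Many of their mRNAs begin with a C followed by a run of pyrimidines, the 5′ terminal oligopyrimidine (TOP) motif, through which mTORC1 and Larp1 control their translation. Several host small nucleolar RNAs (snoRNAs), which guide the chemical modification of ribosomal RNA, in their introns.

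The data were 8 ATAC-seq peak lists, 1 per library. ATAC-seq uses a transposase to cut and tag accessible DNA, and a peak is a stretch with an excess of such cuts. FGR libraries (n = 4) came from hippocampal microglia of FGR mice and Ctrl libraries (n = 4) from those of control mice. The title of the series speaks of intrauterine growth restriction, and the sources used here do not say how the restriction was brought about. All mice of both groups were 3 weeks old and had the genotype Tmem119-tdTomato+/-, a reporter that marks microglia through Tmem119, a gene that microglia express. The sources used here say neither how many animals went into a library nor how the cells were isolated, so p-values measure the spread between these libraries, which may be partly technical.

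A gene-end peak is here one that reaches within 1 kb of the first or the last annotated base of a gene, and where there were several the one with the highest −log10 q was taken. An end of a gene, also of a neighbour, means either of these bases below. Strength is given as the percentile of that peak's −log10 q among all peaks of its own list, where 100 is the strongest. The lists held 27209, 23327, 29501 and 26246 peaks in FGR libraries 1 to 4, against 16111, 10862, 22705 and 24195 in Ctrl libraries 1 to 4. FGR libraries 1 and 3 had the same summit base in 9.01% of their overlapping peaks and FGR libraries 2 and 4 in 7.48%, whereas no other pair of libraries exceeded 2.13%. Ctrl libraries 1 and 3 had summits exactly 200 bp apart in 1.20% of theirs and Ctrl libraries 2 and 4 in 0.919%, whereas no other pair exceeded 0.749%. Identical summits did not mark these Ctrl pairs, at 0.00688% for Ctrl 1 and 3 and 0.0383% for Ctrl 2 and 4, against 2.01% for Ctrl 3 and 4. No label pairs the libraries. Libraries 1 and 3, and libraries 2 and 4, of each group were averaged and each group counted as n = 2 pairs, an assumption that rests on the FGR summits and, for Ctrl, on the summits 200 bp apart and the same numbering. Every n = 2, SD of pairs and p below depends on it, and the fits of 8 separate libraries are given beside the main ones. Ctrl libraries 1 and 2 stood apart from the other 6 in list length and in median peak width over the whole list, which was 566 and 522 bp against 353 to 386 bp in the others. The sources used here do not say whether all 8 lists were called with the same settings, on which list lengths, percentiles and widths depend. Several differences between groups, though not all, are therefore also given without these libraries. Of 12 microglia marker genes, 5 had a gene-end peak in all 8 libraries, against 0 of 10 neuronal, 1 of 8 astrocyte, 1 of 9 oligodendrocyte, 1 of 7 vascular and 0 of 8 monocyte and border macrophage markers. The microglia share was thus 41.7%, beside 31.9% of all protein-coding genes, and in single libraries it ranged from 41.7% to 91.7%.

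Promoter sequences are shown for the 3 genes with the strongest peaks in their weakest library, Rpl27, Rpl15 and Rps21, and for 3 genes with no gene-end peak in any library, Rps2, Rpl19 and Rpl10l, the last 3 picked after their values were seen. Each is the RefSeq window (assembly GRCm38.p6) of 250 bases before and 50 from the annotated start, which is base 251. The windows are chr11:101441995-101442294 on the plus strand for Rpl27, chr14:18270937-18271236 on the minus strand for Rpl15, chr2:180257129-180257428 on the plus strand for Rps21, chr17:24719813-24720112 on the plus strand for Rps2, chr11:98026460-98026759 on the plus strand for Rpl19 and chr12:66284352-66284651 on the minus strand for Rpl10l. Capitals mark the ETS core CCGGAA and the YY1 core ATGGCG on either strand, and the pyrimidine tract, which is 7 or more C or T in a row holding a C within 20 bases of the start on the sense strand.
Rpl27: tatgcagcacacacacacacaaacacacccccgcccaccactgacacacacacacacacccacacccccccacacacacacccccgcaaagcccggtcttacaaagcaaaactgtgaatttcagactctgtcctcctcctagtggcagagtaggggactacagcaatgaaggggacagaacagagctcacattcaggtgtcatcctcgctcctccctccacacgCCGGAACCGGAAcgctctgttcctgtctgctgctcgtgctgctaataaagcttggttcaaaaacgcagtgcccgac
Rpl15: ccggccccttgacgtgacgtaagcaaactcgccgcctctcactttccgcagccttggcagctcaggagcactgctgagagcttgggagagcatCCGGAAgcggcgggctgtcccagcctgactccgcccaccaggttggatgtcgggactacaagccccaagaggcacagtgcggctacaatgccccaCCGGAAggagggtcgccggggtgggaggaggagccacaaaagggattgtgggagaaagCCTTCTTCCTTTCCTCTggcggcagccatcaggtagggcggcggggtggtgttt
Rps21: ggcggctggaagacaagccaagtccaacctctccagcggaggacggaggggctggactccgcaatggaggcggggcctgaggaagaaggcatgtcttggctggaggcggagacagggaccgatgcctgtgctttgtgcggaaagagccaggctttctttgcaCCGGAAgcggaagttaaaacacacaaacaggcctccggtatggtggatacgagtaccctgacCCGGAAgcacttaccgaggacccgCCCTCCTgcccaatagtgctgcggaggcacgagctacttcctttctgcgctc
Rps2: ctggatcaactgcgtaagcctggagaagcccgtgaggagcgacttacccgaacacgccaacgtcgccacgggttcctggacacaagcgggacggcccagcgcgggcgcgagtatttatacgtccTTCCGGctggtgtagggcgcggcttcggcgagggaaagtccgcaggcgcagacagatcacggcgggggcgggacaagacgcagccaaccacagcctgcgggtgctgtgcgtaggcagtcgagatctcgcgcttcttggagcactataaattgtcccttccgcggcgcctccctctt
Rpl19: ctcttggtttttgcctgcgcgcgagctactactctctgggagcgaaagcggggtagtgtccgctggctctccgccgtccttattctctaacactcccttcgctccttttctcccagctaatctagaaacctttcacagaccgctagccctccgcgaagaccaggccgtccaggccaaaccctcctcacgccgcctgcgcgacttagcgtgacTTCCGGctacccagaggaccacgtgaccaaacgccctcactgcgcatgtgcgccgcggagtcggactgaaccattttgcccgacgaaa
Rpl10l: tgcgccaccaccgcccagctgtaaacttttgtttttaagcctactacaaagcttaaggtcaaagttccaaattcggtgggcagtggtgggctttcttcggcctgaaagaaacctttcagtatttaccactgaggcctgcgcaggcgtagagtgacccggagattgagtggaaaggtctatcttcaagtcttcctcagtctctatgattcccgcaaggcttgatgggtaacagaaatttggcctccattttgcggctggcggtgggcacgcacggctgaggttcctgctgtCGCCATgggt
Rpl15 and Rps21 had a pyrimidine tract that runs over the start, whereas the search found none at the start of Rpl27. An ETS core was present in Rpl27, Rpl15, Rps21, Rps2 and Rpl19 and not in the window of the retroposed Rpl10l.

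Most ribosomal protein genes carried a peak in every library, and the copies that are not part of the standard ribosome mostly did not. A gene-end peak was present in all 8 libraries for 64 of 88 members (72.7%), against 6975 of all 21887 protein-coding genes (31.9%). It was absent from all 8 for 8 members, against 9227 of all genes. By role, the count in all 8 was 30 of 43 for the 60S proteins, 27 of 31 for the 40S proteins, 3 of 3 for the stalk and 4 of 11 for the paralogs. The peak was also strong within its list: over the 64 members the median percentile in FGR libraries 1 to 4 was 83.5, 78.9, 83.7 and 78.5, against 73.4, 58.1, 80.1 and 82.9 in Ctrl libraries 1 to 4. The 6975 genes called in all 8 libraries had medians of 83.5, 80.1, 84.4 and 81.9 in FGR and 75.7, 65.0, 81.1 and 83.7 in Ctrl. The members' median was equal in FGR 1 and lower in the other 7 libraries, by the most in Ctrl 2.

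**Figure D1:**
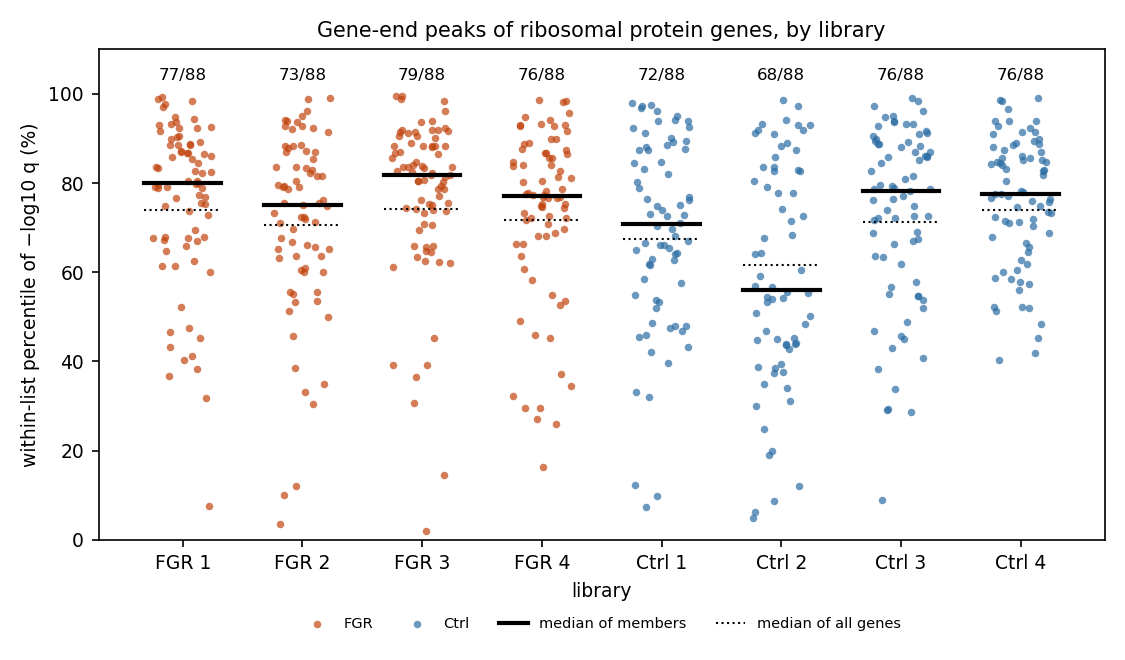
Within-list percentile of −log10 q (vertical axis, %) of the gene-end peak of each ribosomal protein gene, by library (horizontal axis, 4 FGR then 4 Ctrl). Each dot is a gene, solid bars are the median of the members and dotted bars that of all genes with a peak, and the figures at the top give members with a peak of 88; Ctrl 2 has the fewest, 68, and is the one library in which the members' median of 56.1 lies under that of all genes, 61.7.

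The strongest peaks belonged to proteins of both subunits. Rpl27, of the large subunit, was between 97.9 and 99.5 in every library, at 98.4, 98.8, 99.5 and 98.7 in FGR and 97.9, 98.6, 98.3 and 99.0 in Ctrl. Rpl15, also of the large subunit, was at 99.4, 99.0, 98.8 and 98.4 in FGR and 96.2, 97.3, 99.1 and 98.4 in Ctrl. Both groups overlapped for each gene. Rps21, of the small subunit, was at 97.7, 96.2, 98.3 and 95.8 in FGR and 92.6, 88.3, 93.9 and 98.7 in Ctrl. Rpl13a and Rps19, a gene mutated in Diamond-Blackfan anaemia in humans, never fell under 87.6 and 85.9. Rps6, the substrate of the S6 kinases, lay between 86.8 and 93.8 in FGR and between 72.4 and 88.1 in Ctrl. Ranked among the 6975 genes called in all 8 libraries, it was at 59.9 to 80.7 in FGR and 25.8 to 72.2 in Ctrl, so the groups overlapped.

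At the other end, members called in all 8 libraries had single libraries with very weak peaks, and these were mostly Ctrl 2. Rpl32 was at 31.7, 3.60, 45.3 and 16.4 in FGR and 39.7, 42.8, 29.3 and 41.9 in Ctrl, so its weakest library was FGR 2. Rpl12 was at 67.6, 71.0, 63.3 and 29.6 in FGR and 54.8, 4.78, 66.4 and 77.9 in Ctrl. Rpl11, whose protein also binds the p53 regulator Mdm2, was at 75.5, 34.9, 86.9 and 75.2 in FGR and 66.6, 12, 71.6 and 84.1 in Ctrl. In Rpl12 and Rpl11, as in Rpl35a (8.72), Rps24 (24.8) and the ubiquitin fusion gene Rps27a (19.9), the weakest library was Ctrl 2. Ctrl 2 held the lowest percentile of 33 of the 64 members, Ctrl 1 of 9, FGR 2 of 8, and each of the other libraries of 0 to 5. The 3 stalk genes, whose proteins recruit the elongation factors, had percentiles of 64.3 to 93.6 for Rplp0, 39.5 to 85.1 for Rplp1 and 70.9 to 94.2 for Rplp2.

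Of the 11 paralogs, 4 had a gene-end peak in every library and 5 in none. Rpl22l1, the paralog of Rpl22, was at 90.6, 86.9, 83.7 and 93.0 in FGR and 84.4, 82.9, 89.3 and 73.3 in Ctrl. Rpl36al was between 72.3 and 94.7 and Rpl7l1, a relative of Rpl7, between 29.5 and 65.9. Neither separated the groups. For Rpl7l1 the peaks taken in Ctrl 1 and Ctrl 3 lay at the other end of the gene, with summits 9975 and 9779 bp from its start. Its values are thus not all of the same peak. At its start Rpl7l1 was at 12.3 in Ctrl 1 and 48.7 in Ctrl 3. Rpl10l, a retroposed copy of Rpl10 that is used in the testis, had no peak in any library, and neither had Rpl32l, Rpl39l, Rps23rg1 or Rps27rt. Rpl37rt had a single peak, at 14.6 in FGR 3. Rpl3l, the form of Rpl3 that is used in striated muscle, counted as called in all 8, at 59.2 to 91.6, but the median summit lay 40 bp from an end of its neighbour Msrb1 and 3868 bp from its own start.

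Of the 24 members not called in all 8 libraries, 16 were called in some, and these peaks were mostly of middling or low strength. FGR libraries 1 to 4 missed 3, 7, 1 and 4 of the 16, and Ctrl libraries 1 to 4 missed 8, 12, 4 and 4. Rpl13, Rpl24 and Rpl36a lacked a peak in Ctrl 2 alone, Rpl23a and Rpl35 in Ctrl 1 alone, and Rps15 in FGR 2 alone. Rpl26 had a peak in 3 FGR and 3 Ctrl libraries, Rpl38 in 3 FGR and 2 Ctrl libraries, Rpl8 in replicates 3 and 4 of both groups, and Rps27l in FGR 4 and Ctrl 3. The protein of Rpl38 is known in mice for its part in the translation of Hox mRNAs.

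**Figure D2:**
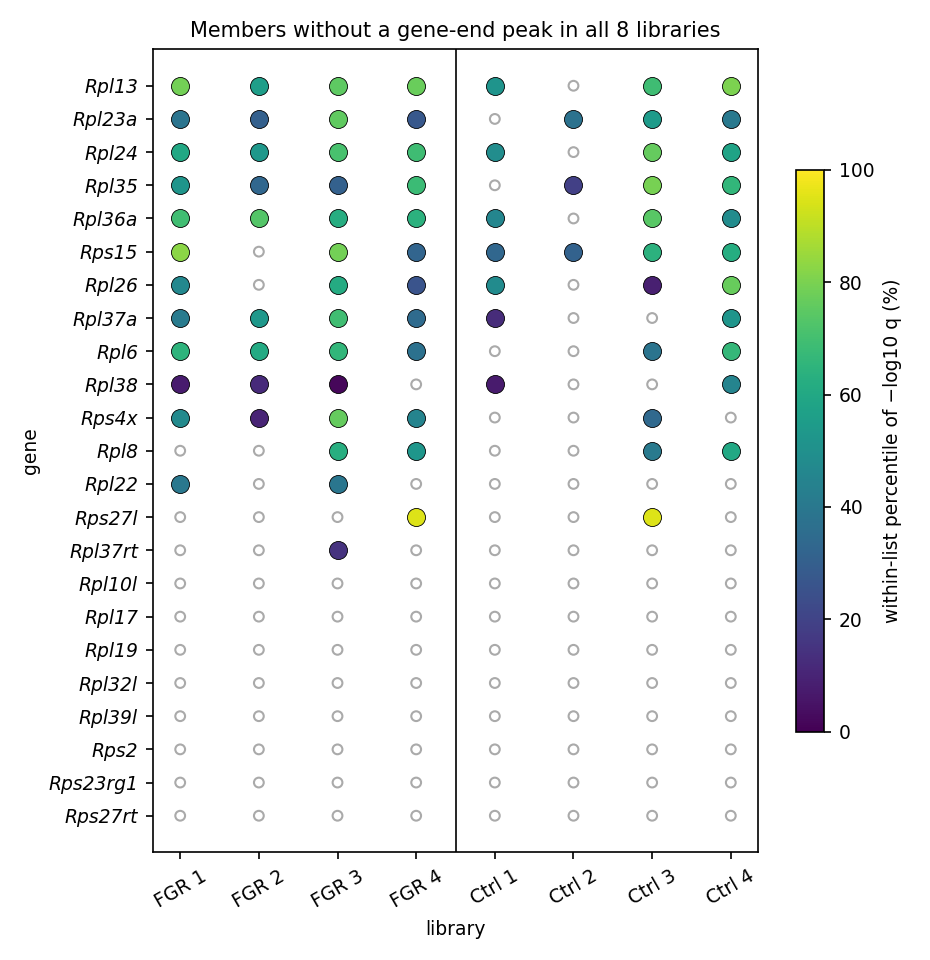
Shown are 23 of the 24 members (rows) without a gene-end peak in all 8 libraries (columns, 4 FGR left of 4 Ctrl). Filled circles are called peaks coloured by their within-list percentile of −log10 q (%), and small open circles are libraries without one; among the 16 members called in some library, Ctrl 2 and Ctrl 1 have the most gaps, 12 and 8, and the others 1 to 7 each.

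The gene ends were not always the promoter, and the annotated starts changed the account of several members. RefSeq promoter entries, which give strand and start, were held for 68 of the 88 members and 17492 of all genes. A peak within 1 kb of an annotated start was found in all 8 libraries for 43 of 57 members of the standard ribosome (75.4%) and in at least 1 library for all 57. For the paralogs it was found in all 8 for 4 of 11 and in none for 6, which were Rpl10l, Rpl32l, Rpl39l, Rpl3l, Rps23rg1 and Rps27rt. Over all genes the share in all 8 was 34.6% and the share in none 40.9%.

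Rps2, of the small subunit, had no gene-end peak, but its annotated start lies 1942 bp inside the span and had a strong peak. Its percentile was 89.1, 90.8, 93.7 and 87.9 in FGR and 59.2, 79.5, 80.3 and 86.5 in Ctrl, and the peak covered the start in all 8 libraries. All FGR values were above all Ctrl values, but percentiles depend on the length of the list. Ranked among the 6055 genes with a peak at a start in all 8 libraries, Rps2 was at 64.0, 72.9, 76.0 and 63.1 in FGR and at 26.5, 68.2, 48.1 and 57.1 in Ctrl, the groups overlapped, and the difference of 19.0 (SE 13.2) did not pass limma (adjusted p = 0.714). Rps27l, a paralog of Rps27 known as a p53 target, had a peak of 95.6, 95.5, 95.4 and 94.8 in FGR and 91.8, 89.5, 94.8 and 89.6 in Ctrl at its start, 1462 bp inside the span. Ranked as Rps2 was, it lay at 83.3, 85.7, 81.8 and 81.9 in FGR and at 80.4, 82.5, 83.4 and 65.5 in Ctrl. These groups overlapped (limma adjusted p = 0.867). Rpl22 was called at an end in FGR 1 and 3 only, but at a start in all 8, between 63.6 and 93.5. Rpl19 had a weak peak near its start, 4707 bp inside the span, at 49.6, 16.1, 48.0 and 1.72 in FGR and at 38.5 and 58.9 in Ctrl 1 and 4, with none in Ctrl 2 and 3. Rpl17, for which no start was held, had peaks inside its span in all 8 libraries. Rpl4, Rpl18 and Rps9 went the opposite way. The summit counted for Rpl4 lay 15 bp from an end of another gene and 5925 bp from its own start. At that start Rpl4 had peaks in 3 FGR and 2 Ctrl libraries. Rpl18 lost FGR 2 and Ctrl 2 when its start was used. Its median percentile was 28.9 there, against 65.2 at a gene end. Rps9 lost only Ctrl 2 at its start, where its median percentile was 41.6, against 66.8 at a gene end.

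The summits lay closer to the annotated starts in 6 of the 8 libraries than in Ctrl 1 and Ctrl 2. Among members whose summit was within 1 kb of a start (45 to 54 a library), 47.2%, 39.2%, 44.4% and 45.3% had it within 50 bp in FGR libraries 1 to 4, against 8.16%, 4.44%, 47.1% and 40.4% in Ctrl libraries 1 to 4. Ctrl 1 and Ctrl 2 were thus low while Ctrl 3 and Ctrl 4 were within the range of the FGR libraries. For all genes the share was 31.5% to 32.4% in FGR, and 15.2%, 16.1%, 34.0% and 33.5% in Ctrl. The median distance from start to summit was 53, 70, 57.5 and 60 bp in FGR and 117, 150, 56 and 87 bp in Ctrl. Summit positions of Ctrl 1 and Ctrl 2 were therefore not compared between groups.

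**Figure D3:**
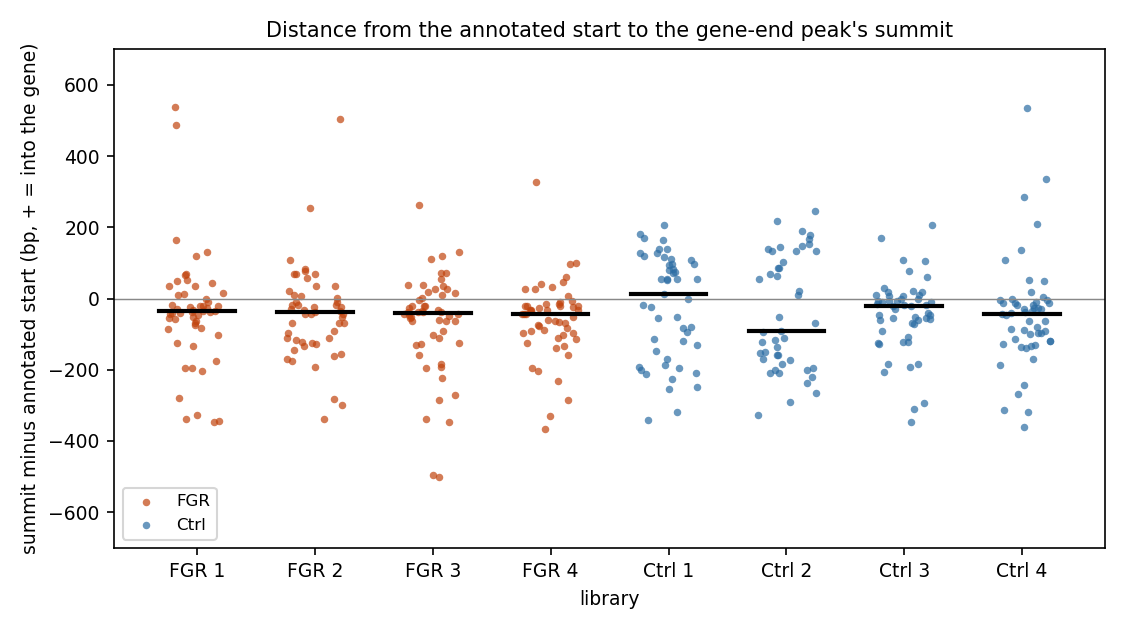
Summit position minus annotated start (vertical axis, bp, positive into the gene) of the gene-end peaks of ribosomal protein genes within 1 kb of a start, by library (horizontal axis, 4 FGR then 4 Ctrl). Each dot is a gene and bars are medians; in Ctrl 1 and Ctrl 2 the dots leave a gap at the start, where 4 and 2 summits lie within 50 bp, against 20 to 25 in each of the other libraries.

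The study set FGR mice against controls, and the share of ribosomal protein genes with a peak was asked first. It was 87.5%, 83.0%, 89.8% and 86.4% in FGR libraries 1 to 4, against 81.8%, 77.3%, 86.4% and 86.4% in Ctrl libraries 1 to 4. FGR averaged 86.6% ± 2.81 and Ctrl 83.0% ± 1.61 (SD, n = 2 pairs each), a difference of 3.69 percentage points. Over the 4 libraries of a group the SD was 2.84 in FGR and 4.35 in Ctrl. FGR 2 lay below Ctrl 3 and Ctrl 4, so the groups overlapped, and the difference was 1.42 points without Ctrl 2 and 5.97 without Ctrl 4. All protein-coding genes differed by 4.01 points, with 46.7% ± 1.85 in FGR and 42.7% ± 1.66 in Ctrl. When every list was reduced to its 10862 strongest peaks, the length of the shortest, the direction turned: the members' share was 73.9%, 70.5%, 77.3% and 69.3% in FGR and 77.3%, 77.3%, 71.6% and 77.3% in Ctrl, a difference of −3.12 points beside −3.29 for all genes. In replicates 3 and 4 alone the difference was 1.70 points for the members and 0.169 for all genes. What sets the length of the lists was not tested.

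No ribosomal protein gene was called in every library of one group and in none of the other. Among all genes, 37 (0.169%) had a gene-end peak in 4 FGR and 0 Ctrl libraries and 5 (0.0228%) in 4 Ctrl and 0 FGR libraries. With a difference of at least 2 libraries, 4 of 88 members were called more often in FGR, beside 4.94% of all genes, and 1 of 88 more often in Ctrl, beside 1.04% of all genes. Those more often in FGR were Rps4x, Rpl6, Rpl37a and Rpl22.

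Rps4x (chrX:102184941-102189391), the X-linked gene of a small-subunit protein, had the widest split, and without Ctrl 3 it would count as called in every FGR and no Ctrl library. Its percentiles were 47.4, 10.1, 76.2 and 45.3 in FGR, and it was called in Ctrl 3 alone, at 33.9. The share of all genes that would count so without Ctrl 3 was not determined. Rpl6 was at 64.8, 60.6, 65.7 and 37.2 in FGR and at 38.4 and 66.6 in Ctrl 3 and 4. Rpl37a was at 41.3, 53.5, 69.4 and 34.5 in FGR and at 12.3 and 52.1 in Ctrl 1 and 4. Rpl22 was called at 40.2 and 39.2 in FGR 1 and 3, but its start peak above was present in all 8 libraries. For Rps4x, Rpl6 and Rpl22, Ctrl 1 and Ctrl 2 were both among the libraries without a peak.

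To compare strengths apart from list length, the 6975 genes called in all 8 libraries were ranked by −log10 q within each library, and the rank percentiles of the 4 pair means were compared with limma. None of the 64 members passed an adjusted p of 0.05, and neither did any of the 6975 genes (0%), with a smallest adjusted p of 0.596 (limma, Benjamini-Hochberg). At an unadjusted p under 0.05 there were 7 members (10.9%), 4 higher and 3 lower in FGR, against 556 of all genes (7.97%). The members' median difference was 1.47 rank points and that of all genes −0.102. The members' median lay between −0.907 and 2.0 when single libraries were left out, and was negative without Ctrl 1, without Ctrl 3 or without Ctrl 4. It was 0.526 without Ctrl 1 and 2. In the fit of all libraries, 35 of 64 members (54.7%) against 49.3% of all genes were higher in FGR. The typical size of a difference was 8.73 rank points for members and 7.44 for all genes. The limma fits with the 8 libraries as separate samples, with or without the replicate block, also called 0 genes, and the smallest adjusted p among the members named below was 0.185, for Rpl35a.

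In 3 members every FGR library ranked above every Ctrl library (4.69%, beside 4.01% of all 6975 genes) and in 2 every FGR library ranked below (3.12%, beside 3.14%). Rpl35a (chr16:33056453-33060189), a large-subunit gene, had the widest difference. It ranked at 37.2, 41.8, 55.2 and 60.6 in FGR and at 15.1, 2.96, 22.5 and 9.45 in Ctrl, a difference of 36.2 (SE 11.6, limma adjusted p = 0.596). With a window of 2 kb instead of 1 kb it was 5.66 (limma adjusted p = 0.951), and under the other alternatives it lay between 26.4 and 41.0. Rpl7a (chr2:26910685-26913312), whose span holds 4 snoRNA genes, ranked at 54.7, 36.1, 42.5 and 36.4 in FGR and at 6.82, 34.0, 2.57 and 11.0 in Ctrl, a difference of 28.9 (SE 11.4, limma adjusted p = 0.602). Its median summit was 24 bp from another gene's end and 188 bp from its own start. Rpl3, which lies near the catalytic centre of the large subunit, averaged 69.0 in FGR and 43.5 in Ctrl. The difference of 25.5 (limma adjusted p = 0.649) lay between 18.4 and 30.8 under the alternatives. FGR 2 and Ctrl 4 nearly met in Rpl3, at 56.2 and 56.1.

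The members that ranked below in FGR were Rps26 and Rpl10. Rps26 (chr10:128624529-128626506), a small-subunit protein at the mRNA exit channel, ranked at 58.2, 35.2, 66.8 and 44.0 in FGR and at 71.3, 88.8, 78.3 and 74.6 in Ctrl, a difference of −27.2 (SE 11.8, limma adjusted p = 0.605). Rpl10, which joins the large subunit late in its assembly, ranked at 41.6, 41.9, 47.2 and 61.0 in FGR and at 75.6, 86.8, 61.2 and 71.5 in Ctrl (limma adjusted p = 0.623). FGR 4 and Ctrl 3 nearly met in Rpl10, at 61.0 and 61.2, and its difference of −25.8 was −16.6 without Ctrl 1 and 2 and −10.3 in replicates 3 and 4 alone, where that of Rps26 was −17.8. The other members at an unadjusted p under 0.05 had groups that overlapped: Rpl37 averaged 92.2 in FGR and 71.2 in Ctrl, Rpl31 71.5 and 42.3, Rpl21 36.8 and 68.4, and the stalk gene Rplp2 41.9 and 70.3. The differences of these 4 rested largely on Ctrl 1 and Ctrl 2. That of Rpl37, 21.0, was 9.28 without Ctrl 2 and 6.04 without Ctrl 1 and 2. That of Rpl31, 29.2, was 16.2 without Ctrl 1 and 9.55 without both. That of Rpl21, −31.7, was −18.5 without Ctrl 2 and −14.1 without both, and that of Rplp2, −28.5, was −18.1 without Ctrl 1 and −10.4 without both. These genes were named for their p after their values were seen.

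**Figure D4:**
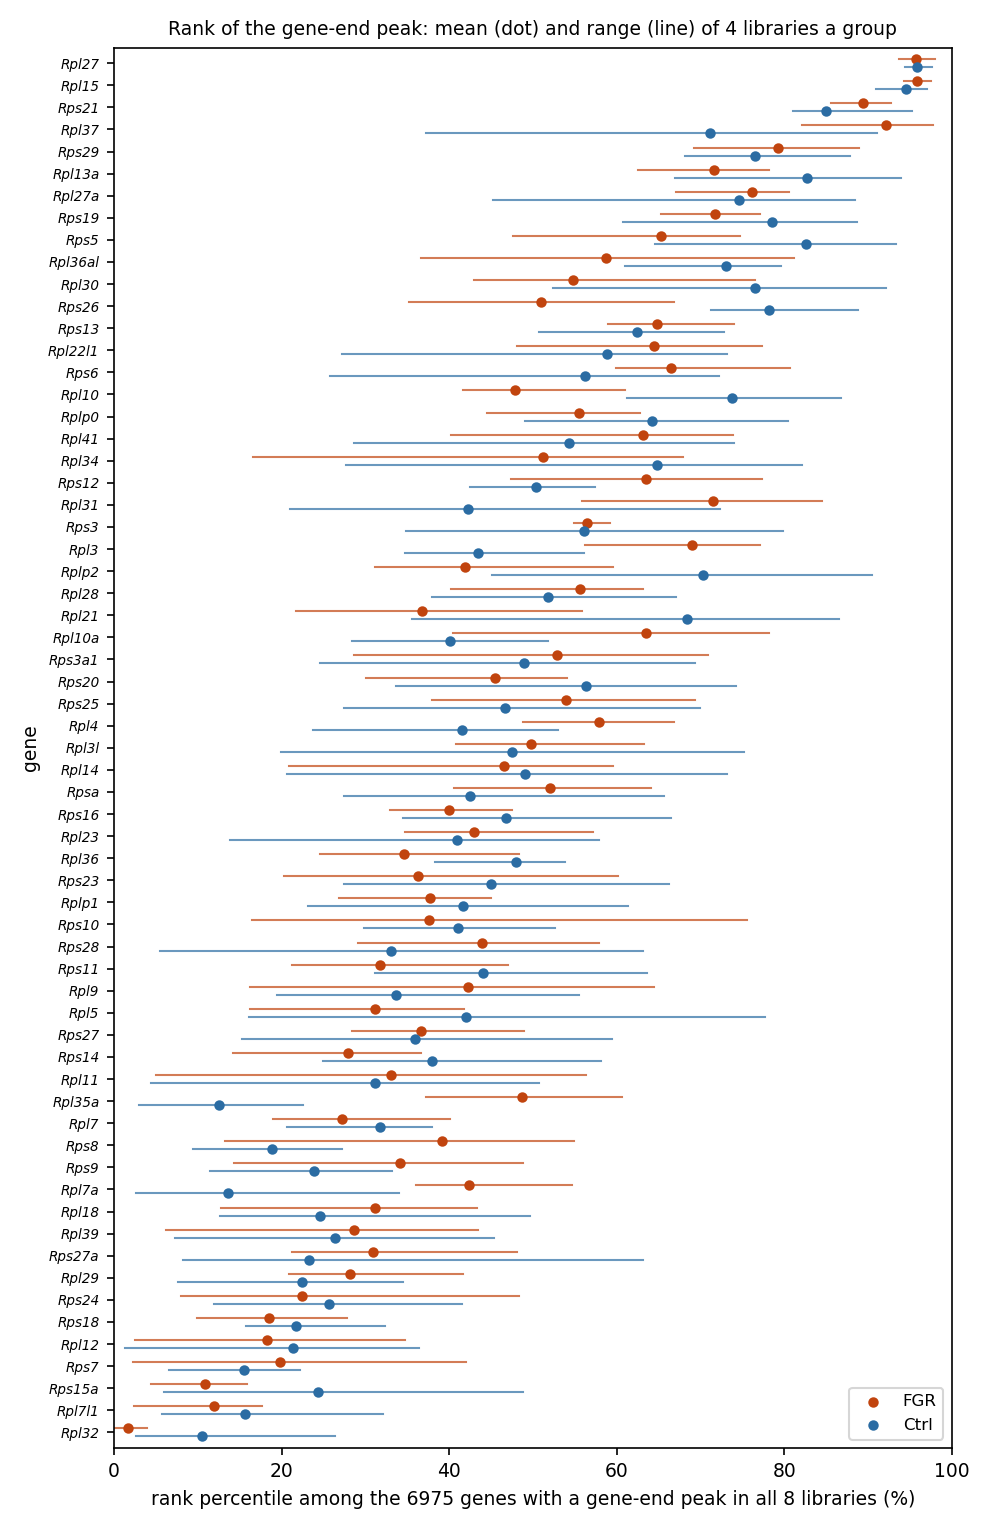
Rank percentile of the gene-end peak (horizontal axis, %, among the 6975 genes called in all 8 libraries) for 63 of the 64 members (rows, ordered by mean). Dots are the mean and lines the range of 4 libraries, FGR above Ctrl in each row; the lines of both groups overlap for all but 5 members, of which Rpl35a, Rpl7a and Rpl3 are higher and Rps26 and Rpl10 lower in FGR.

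Peak widths were compared in the same way, although Ctrl 1 and Ctrl 2 had wider peaks over their whole lists. The members' median difference in log2 width was −0.01, and −0.05 without Ctrl 1 and 2. The median width over the 64 members was 667, 625.5, 699.5 and 651.5 bp in FGR libraries 1 to 4 and 689, 586, 681 and 720 bp in Ctrl libraries 1 to 4. The widest were Rpl36al (median 1230 bp), Rpl7 (1183 bp) and Rps25 (1061 bp), and the narrowest Rpl18 (384.5 bp), Rps9 (405 bp) and Rpl32 (441.5 bp). The median summits of Rpl18 and Rps9 lay 2754 and 3142 bp from their own starts, and that of Rpl36al 43 bp from another gene's end. No member and no other gene passed the limma test of log2 width (0 of 6975, 0%), and 2 members (3.12%) against 373 of all genes (5.35%) had an unadjusted p under 0.05. The limma fit of the 8 libraries as separate samples called 2 genes, neither a member. In 3 members the peak of every FGR library was narrower than that of every Ctrl library (4.69%, beside 3.21% of all 6975 genes). In 0 members was it wider in every FGR library (0%, beside 1.96%). Rps10, of the small subunit, was narrower in every FGR library, at 371, 485, 343 and 465 bp in FGR and 611, 631, 790 and 694 bp in Ctrl, which is −0.72 on the log2 scale (SE 0.24, limma adjusted p = 0.902), and −0.85 without Ctrl 1 and 2. Rpl35a was at 778, 715, 1110 and 766 bp in FGR and 686, 223, 610 and 732 bp in Ctrl, which is 0.70 on the log2 scale (SE 0.28, limma adjusted p = 0.902). Without Ctrl 2 it was 0.27, without Ctrl 1 and 2 it was 0.31 and without Ctrl 4 it was 1.13, so that it rested largely on the 223 bp of Ctrl 2.

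The members shared features of sequence and position that the rule did not use. A pyrimidine tract lay within 20 bases of the start in 57.4% of 68 member promoters, against 29.4% of 17492 promoters of all genes, and it ran over the start in 25.0%, against 3.83%. The TOP arrangement, a C at the start followed by 4 pyrimidines, was found in 20.6%, against 2.17%. On either strand, the ETS core was held by 48.5% of the member promoters against 19.1% of all, the YY1 core by 29.4% against 11.2% and the cAMP response element core TGACGT by 17.6% against 8.71%. The SP/KLF box GGGCGG was held by 57.4% against 46.3%, the CCAAT box CCAAT by 32.4% against 39.2%, the TATA box TATAAA by 11.8% against 13.3% and the E-box CACGTG by 7.35% against 7.91%. Rpl14 had a tract of 14 bases, Rpl27a one of 20 bases and Rpl7a one of 21 bases. A promoter can count in several of these classes, and the TOP arrangement did not require a tract over the start. Such matches describe the letters and not the binding of a factor.

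**Figure D5:**
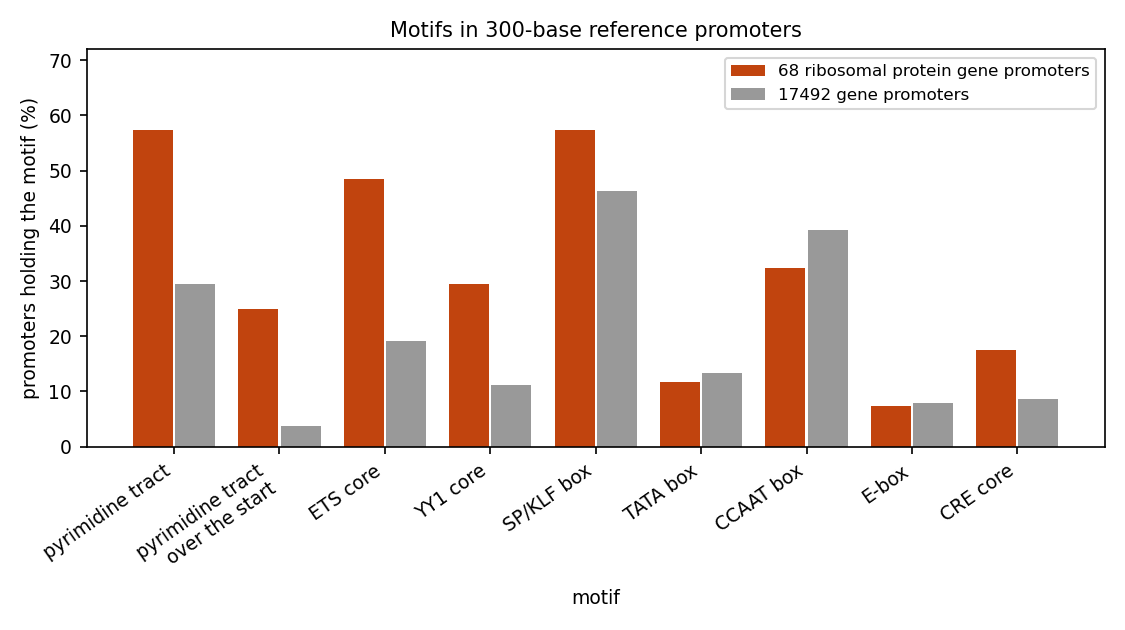
Share of 300-base reference promoters (vertical axis, %) that hold each motif (horizontal axis), for 68 ribosomal protein genes (left bar) and 17492 genes in all (right bar). The pyrimidine tract, ETS core and YY1 core are more frequent among the ribosomal protein genes, at 57.4% against 29.4%, 48.5% against 19.1% and 29.4% against 11.2%, while the TATA box, CCAAT box and E-box are not.

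Within the standard ribosome, start peaks were counted with and without each motif other than the TOP arrangement, with no test. A peak was present in all 8 libraries for 28 of 34 members with the SP/KLF box and 15 of 23 without it, and the median percentile was 81.8 with the box and 67.0 without. For the YY1 core the counts were 14 of 16 with and 29 of 41 without, and for the ETS core 23 of 29 and 20 of 28. For the pyrimidine tract they were 26 of 33 and 17 of 24, and for a tract over the start 12 of 15 and 31 of 42. For the TATA box they were 5 of 6 and 38 of 51, and for the E-box 4 of 5 and 39 of 52. For the cAMP response element core they were 7 of 12 with and 36 of 45 without, and for the CCAAT box 13 of 18 and 30 of 39. The other medians differed less and did not always go the way of the counts. They were 76.2 with and 75.1 without the YY1 core, and 75.5 and 75.1 for the cAMP response element core. For the TATA box they were 75.7 and 75.1, for the CCAAT box 78.9 and 73.4, and for a tract over the start 72.8 and 75.4. The median was higher with the ETS core (81.9) and the E-box (84.6) than without. It was lower with the pyrimidine tract than without (75.4). The median member promoter of the standard ribosome held 21 CpG sites in 300 bases, against 13 in the paralogs and 13 in all promoters, at a G and C content of 58.0%, 54.7% and 56.3%.

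The genes were short, and some lay close to a neighbour or hosted snoRNAs, for which the share of all genes was not counted. Their median span was 3179 bp, against 17169 bp for all genes. Another protein-coding gene had its first or last base within 1 kb of an end of 32 of the 88. Of these, 26 had a peak in all 8 libraries, against 38 of the other 56. In 13 of the members called in all 8, the median summit was within 100 bp of another gene's end, among them Rpl15 (36 bp) and Rpl12 (10 bp), so that the genes' own peaks cannot be told apart. Spans of 30 members held 59 snoRNA genes, up to 5 in Rpl4, and 25 of the 30 hosts had a peak in all 8 libraries, against 39 of the other 58. Those 58 include all 11 paralogs, of which 4 had a peak in all 8, so the contrast is not one of snoRNAs alone. Chromosome 7 carried 14 members (15.9%), against 9.27% of all genes.

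Most other genes of translation also had a peak in every library. A gene-end peak was present in all 8 libraries for 7 of 8 elongation factors, 24 of 31 initiation factors, 10 of 10 other genes with ribosomal or TOP mRNA products (such as Fau and Rack1), 31 of 41 genes of ribosome biogenesis and 10 of 17 genes of mTORC1 and TOP mRNA control. The mitochondrial ribosomal proteins, which build the separate ribosome of that organelle, had 47 of 78 (60.3%). In the limma fits of rank and of width, 0 of the genes tested in each list passed (7 elongation, 24 initiation, 10 TOP, 31 biogenesis, 10 mTORC1 and 47 mitochondrial). Their median rank differences, FGR minus Ctrl, were −2.79, −4.61, 0.169, −1.81, 1.21 and 0.0573 in the same order, and 0, 6, 0, 5, 2 and 4 genes had an unadjusted p under 0.05 in rank, beside 7.97% of all genes tested.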

How the data were processed

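The 8 deposited peak lists were used as the authors made them, 1 list per library. Per the submitters' processing notes, the tools were MACS2 2.2.7.1, Bowtie2 2.4.5, Trim Galore 0.6.5, DiffBind 3.12.0 and SAMtools 1.3.1 and the build mm10, with no role or setting given. Peaks were called library by library, since each has its own list. The sources used here do not say how reads were shifted or whether duplicates or blacklisted regions were removed. The deposited −log10 q value of each peak, at least 1.31 in every list, was used for ranks and filters within its list. The deposited fold, a ratio of pileup to local background, was used in no test. Read depth is unknown, so no interval is given for a peak.

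Genes, strands, starts and sequences came from RefSeq tables of GRCm38.p6, whose coordinates are those of mm10. The gene table gives no strand, so both gene ends were used. Members and gene lists were chosen with earlier results of these data known, so counts over members carry no test. Named members are those without a peak in all 8 libraries, those differing by 2 or more libraries between groups, the paralogs, the 6 highest and 6 lowest by their lowest percentile, the 3 widest and 3 narrowest, and any past the limma threshold. Some genes that the rule would name are not reported here or drawn. Rps6 and the members at unadjusted p under 0.05 or with separate groups were added after their values were seen. Rpl4, Rpl14, Rpl27a, Rplp0 and Rplp1 were also named outside the rule. limma 3.58.1 in R 4.3.3 was fitted with a trend to all genes called in all 8 libraries, and p was adjusted by Benjamini-Hochberg with a threshold of 0.05. The fit was tested on simulated data. Alternatives changed the window, the q filter, the list length, the libraries, the member rule and the model. Other steps used Python 3.11.15, numpy 2.4.6 and pandas 2.3.3.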

Additional observations from a re-analysis of the deposited data

How the results depend on the processing

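The difference in the share of members with a peak, 3.69 points, turned to −3.12 with lists of equal length, where the members' median rank difference of 1.47 turned to −2.26. The share difference ranged from 1.42 to 5.97 points when 1 library was left out (lowest without Ctrl 2) and was 2.56, 3.12 and 3.41 with a 500 bp window, a 2 kb window and summits in the window, and 5.88 at gene starts. It was 0.284 without Ctrl replicates 1 and 2. The median rank difference ranged from −0.907 to 2.0 when 1 library was left out, and its sign was not stable: it was negative without Ctrl 1, without Ctrl 3 and without Ctrl 4, and in replicates 3 and 4 alone (−0.341). The count of members called in all libraries ranged from 47 (lists of equal length) to 73 (replicates 3 and 4 only). No member was called in every library of one group and none of the other under any alternative run except without Ctrl 3, where 1 was, Rps4x, so that the count ranged from 0 to 1. The share of all genes past this rule without Ctrl 3 was not determined. The members' median log2 width difference, −0.01, ranged from −0.06 to 0.08 when 1 library was left out. No member passed limma in rank or width under any alternative run, and the 9 members named for rank and 2 for width kept their sign in each alternative that gave a value, while their sizes fell as far as 5.66 rank points in Rpl35a (2 kb window), −6.02 in Rpl21 and −6.86 in Rplp2 (both in replicates 3 and 4 alone) and 6.04 in Rpl37 (without Ctrl 1 and 2). The replicate number did not pair libraries across groups: same-numbered libraries deviated from their group means with correlations of −0.0289 to 0.0288. The replicate block cannot move a difference of means in this balanced design (3.69 points in share), and the fit with it called 0 members, with 2 genes in width where the fit of pair means had called 0. The span alternative was added after seeing the data. Lists of unequal length and unknown depth limit what a missing peak says.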
